A study of Neurospora crassa with 16 samples.

Results

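The 7 genes described here direct or accompany asexual spore development in Neurospora crassa, a filamentous fungus. They were chosen from 9730 counted genes by their known roles, with earlier results of these data known. They are the regulators fl (NCU08726), acon-3 (NCU07617), csp-1 (NCU02713) and csp-2 (NCU06095), and the conidiation genes con-6 (NCU08769), con-10 (NCU07325) and eas (NCU08457). Polyadenylated RNA was sequenced from strain N5555, mating type a, in which lsd1 is deleted and replaced by the hygromycin resistance marker hph (Δlsd1, 2 libraries). The encoded protein, lysine-specific demethylase 1, is a histone demethylase, and the study asked what its loss does to heterochromatin and to gene expression. The wild type is strain N3752 of mating type A, whose 2 RNA libraries belong to another series and enter here only as the means in the authors' deposited tables, so mating type and series differ along with lsd1. The Δlsd1 cultures grew for 16 h at 32 °C, shaken in Vogel's medium with 1.5% sucrose, and are labelled germinated conidia, while the protocol speaks of harvested mycelia.

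Conidia, the asexual spores of Neurospora, form on aerial hyphae that switch to budding and then split into separate spores. The zinc cluster transcription factor FL drives the formation of conidiophores, ACON-3 acts in their development, and csp-1 and csp-2 are named for mutants whose conidia fail to separate. The con genes were found through transcripts that accumulate during conidiation, and eas encodes the hydrophobin that coats the conidium and makes it water-repellent. Growth in shaken liquid medium normally keeps hyphae vegetative, and several of these genes also answer to light and the circadian clock.

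The 2 Δlsd1 libraries held 7017726 and 6797672 reads on genes. The targeted gene, NCU09120, kept 41 and 65 reads, and the authors' deposited table put its normalised mean at 88.7 in Δlsd1 and 675 in wild type (log2 fold change -2.93). The labels number the libraries as replicates without saying that they came from separate cultures, so the spread between them may be technical. In such bulk RNA, fewer cells of a type and less RNA per cell cannot be told apart.

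The genes spanned a wide range of levels in Δlsd1. To compare genes, reads scaled to a common library total (counts per 1e6 reads, CPM) were divided by the length of the annotated gene span in kb. On this scale of level per length eas stood highest at 446 ± 378 CPM per kb, and acon-3 lowest at 0.612 ± 0.0511 CPM per kb (SD, n = 2 libraries), a 729-fold range of means that came to 1101-fold in replicate 1 and 310.1-fold in replicate 2. The median of all 9729 genes with a length was 5.77 CPM per kb, and 6 of the 7 genes lay above it. Among all genes, eas, csp-1 and csp-2 were within the highest 10%, at rank 160, 209 and 810.

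The hydrophobin gene eas (chromosome II, 3570905 to 3572798, assembly NC12 as are all positions here) had 9721 reads in replicate 1 and 2241 in replicate 2, which are levels of 1351 and 338 CPM. Its libraries thus lay far apart, and the position of eas at the top of the order rests on replicate 1. The repressor gene csp-1 (chromosome I, 3284468 to 3286740), whose product is a clock-controlled transcriptional repressor, had 5293 and 5292 reads, or 735 and 798 CPM. Per kb of span csp-1 stood at 324 and 351 CPM, between the values of 713 and 179 CPM per kb of eas, so the order of eas and csp-1 is not settled beyond the spread of the libraries.

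The Grainyhead-like transcription factor gene csp-2 (chromosome VII, 1812241 to 1816456) had 2008 and 2098 reads, or 279 and 317 CPM. Per length it was below csp-1 in both libraries, with 66.2 and 75.1 CPM per kb. The conidiation gene con-10 (chromosome IV, 4364944 to 4365763) had 272 and 152 reads, or 37.8 and 22.9 CPM. The master regulator fl (chromosome II, 3805777 to 3809265) had 705 and 436 reads, or 97.9 and 65.8 CPM. Per length con-10 (46.1 and 27.97 CPM per kb) stood above fl (28.1 and 18.9 CPM per kb) in each library, although con-10 in replicate 2 and fl in replicate 1 were level.

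The other conidiation gene, con-6 (chromosome III, 5205042 to 5205927), had 95 and 48 reads, or 13.2 and 7.24 CPM. Per length it stood at 14.9 and 8.17 CPM per kb, below fl in both libraries, at percentile 64.6 of all genes. On the right its span shares 93 bp with NCU08768, a gene with 106 and 72 reads, and the sources used here do not say whether counting used strand, so reads in that stretch cannot be assigned with certainty. The developmental regulator acon-3 (chromosome IV, 271905 to 274263), related to medusa of Aspergillus, had 11 and 9 reads, or 1.53 and 1.36 CPM. Its 20 reads have an exact Poisson 95% interval of 12.2 to 30.9, which covers counting error only, and its percentile among all genes was 21.8.

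**Figure D1:**
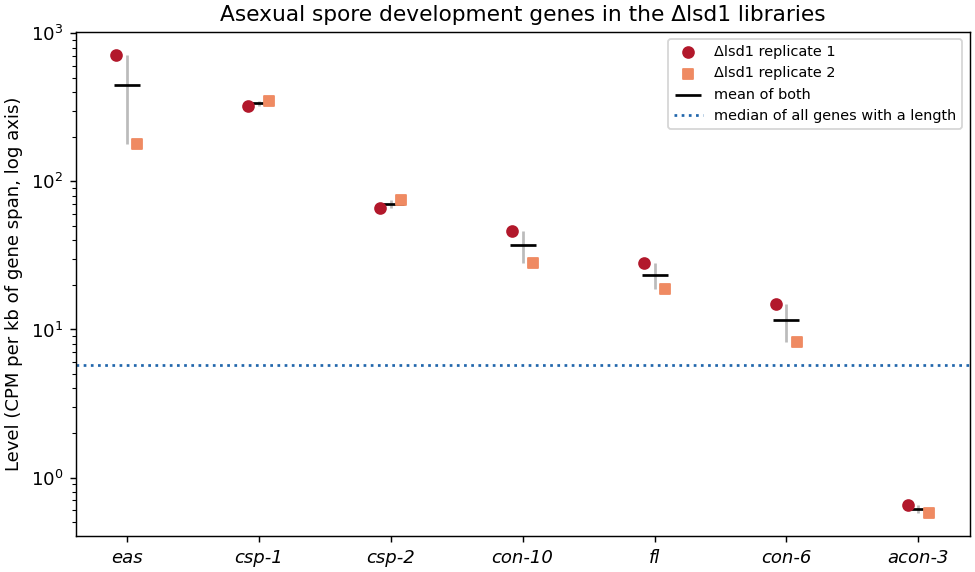
Level of each asexual spore development gene in the Δlsd1 libraries, in CPM per kb of gene span on a log axis, with replicate 1 as circles, replicate 2 as squares, the mean as a bar and the median of all genes as a dotted line. The points of eas lie at 713 and 179 CPM per kb, while those of csp-1, csp-2 and acon-3 nearly coincide, and acon-3 is the 1 gene below the median of 5.77 CPM per kb.

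Among the 7 genes, the 2 Δlsd1 libraries lay farthest apart at the conidiation genes. On the CPM scale eas was 3.99-fold, con-6 1.82-fold, con-10 1.65-fold and fl 1.49-fold higher in replicate 1. The other regulators were close to even, csp-1 lying 1.09-fold and csp-2 1.13-fold higher in replicate 2, and acon-3 too shallow to compare. Each gene's reads were set against the scaled library sizes in an exact two-sided binomial test, adjusted by Benjamini-Hochberg over the 7319 genes with at least 10 reads in each library, which acon-3 missed by 1 read. This test compares these libraries, not conditions, and it covers counting error only. At high depth it therefore calls differences smaller than the biological coefficient of variation of 15.3% over the tested genes, as at csp-1. That coefficient came from these 2 libraries alone, so despite its name it may hold technical spread.

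All 6 tested genes differed, but the background was high, since 27.1% of all tested genes differed at an adjusted p under 0.05. That share is not matched for depth, as it includes genes with fewer reads than con-6. Of the 7319 tested genes, 5359 had at least as many reads as con-6. Of the 6, 4 were higher in replicate 1, against 13.1% of all tested genes, and 2 were higher in replicate 2, against 14.0%. The adjusted p of the exact binomial test was 6.38e-10 for fl, 6.35e-06 for con-10, 0.00328 for con-6, 0.000180 for csp-1 and 0.000377 for csp-2, and for eas it was too small for the number format. With the libraries scaled by total reads, csp-1 and csp-2 no longer passed the exact binomial test (adjusted p = 0.235 and 0.0537), while fl, con-6, con-10 and eas did. Requiring at least 1.5-fold besides, a rule added after the data were seen, left eas, con-6 and con-10, against 7.20% of all tested genes.

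The size of the difference places eas apart from nearly all genes of its depth. Only 10 of the 7319 tested genes had a larger difference between the libraries in either direction, and 2.58% of them differed at least 2-fold. Of the 184 genes with at least as many reads as eas over both libraries, 3 differed at least 2-fold. Beside eas these were NCU07287 with 9768 and 2863 reads and NCU06132 with 3774 and 8255 reads, both named here after their values were seen. The median difference of the 6 asexual spore genes, ignoring direction, was 1.57-fold, against 1.16-fold over all tested genes.

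**Figure D2:**
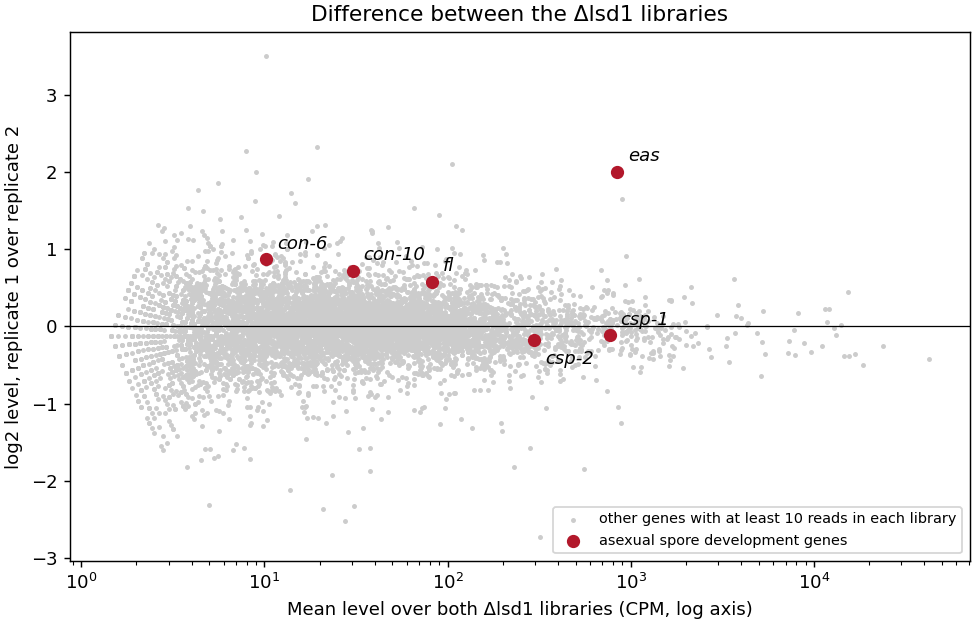
Log2 level in replicate 1 over replicate 2 of Δlsd1 against the mean level in CPM on a log axis, with all 7319 tested genes in grey and the 6 tested asexual spore genes in red. The point of eas lies at 2.00, above the main cloud at its level, con-6, con-10 and fl lie between 0.57 and 0.87, and csp-1 and csp-2 lie just below 0.

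In the comparison of Δlsd1 with wild type, csp-2 was higher, con-10 was lower, and con-6 was listed as higher without passing an adjusted threshold. The authors' 2 deposited tables hold 305 genes called higher and 755 called lower in Δlsd1. Each was at least 2-fold from wild type, with an unadjusted p of at most 0.0497. In the tables with an adjusted p under 0.05 were 9.37% of all counted genes and 2 of the 7. For genes in neither table no adjusted p was available here. Called higher were 2 of the 7 genes, against a background of 3.13% of all counted genes, and called lower was 1 of 7, against 7.76%. With so few genes these shares carry little weight, and the values of the single genes matter more.

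The largest change was at con-10, whose normalised counts were 427 and 259 in the Δlsd1 libraries, while the authors' deposited table gave a wild-type mean of 1153. Both Δlsd1 libraries were thus well below the wild-type mean, by 2.70-fold in replicate 1 and by 4.45-fold in replicate 2. In that authors' deposited table con-10 fell by 1.75 on the log2 scale (adjusted p = 8.70e-15). Of the 3 genes with a wild-type mean it was the 1 at least 2-fold away in each library alone; 8.02% of all counted genes were in the tables and met this.

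For csp-2 the normalised counts were 3140 and 3554 in the Δlsd1 libraries, beside 1611 as the mean that the authors' deposited table gives for wild type. The libraries lay close together, 1.95-fold and 2.21-fold above the wild-type mean. With 1.05 on the log2 scale csp-2 passed in the authors' deposited table (adjusted p = 4.64e-07).

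For con-6 the normalised counts were 150 and 83.0 in the Δlsd1 libraries, beside a wild-type mean of 43.8 per the authors' deposited table. The libraries were well apart, replicate 1 at 3.42-fold and replicate 2 at 1.89-fold of the wild-type mean. For con-6 the authors' deposited table listed 1.41 on the log2 scale with an unadjusted p = 0.0465 and an adjusted p = 0.162. It was among 148 genes in the tables with an adjusted p of 0.05 or more. The 2 con genes therefore stood on opposite sides of wild type, although both were higher in replicate 1 than in replicate 2 of Δlsd1.

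**Figure D3:**
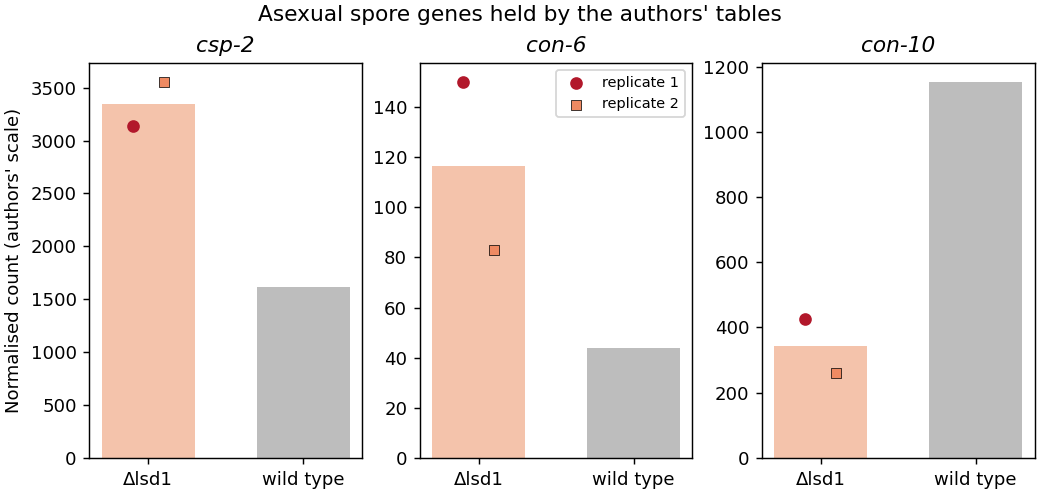
Normalised counts on the authors' scale for the 3 asexual spore genes in the authors' deposited tables, with bars for the Δlsd1 mean (left) and the wild-type mean (right), and points for the Δlsd1 libraries; wild type has no points because its libraries were not used here. For con-10 both points lie far below the wild-type bar of 1153, for csp-2 both lie above the bar of 1611, and for con-6 replicate 2 at 83.0 is much nearer to the bar of 43.8 than replicate 1 at 150.

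The remaining 4 genes, fl, acon-3, csp-1 and eas, were in neither of the authors' deposited tables, and a wild-type level for them was not used here. On the authors' scale the Δlsd1 libraries had normalised counts of 15193 and 3796 for eas, 8273 and 8963 for csp-1, 1103 and 740 for fl, and 18.8 and 16.9 for acon-3. Absence from the tables does not show equal levels in both strains. Of the 931 tabled genes with at least 10 reads in each library, 4 had libraries at least as far apart as eas. Among all 7319 tested genes, 10 lay farther apart. For acon-3, the mean of 17.8 lies below that of every gene called higher in the authors' deposited tables, the lowest of which had 21.0. Among genes called lower, 100 had a Δlsd1 mean as low. Whether depth or library spread bears on the absence of acon-3 or eas from the tables was not tested.

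Other conidiation genes in the authors' deposited tables stood on both sides of wild type. Of 18 symbols listed, 11 matched a gene, of which 3 were called lower (against 7.76% of all counted genes), 1 higher (against 3.13%) and 7 neither. The authors' deposited table gave acon-2, needed early in the budding of aerial hyphae, a mean of 76.5 in Δlsd1 and 186 in wild type, or -1.28 on the log2 scale (adjusted p = 0.000497). Its libraries held 46 reads each. The transcription factor gene ada-6, with 17 and 10 reads, stood at -1.27 on the log2 scale in the authors' deposited table, without passing an adjusted threshold (adjusted p = 0.0682). The phosphoenolpyruvate carboxykinase gene acu-6, which the reference table also lists as con-3, had 1218 and 473 reads, and the authors' deposited table placed it at -1.88 (adjusted p = 2.64e-09). The catalase gene cat-1, whose enzyme is abundant in conidia, was higher in the authors' deposited table, with a mean of 18253 in Δlsd1 and 8321 in wild type, or 1.13 on the log2 scale (adjusted p = 0.000301).

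The members of that list in neither table included con-8, with 10634 and 12813 reads, and fld, a gene of the fluffyoid mutants that resemble fl, with 1047 and 1074 reads. The gene con-13 had 1 read in all. It lies 1555 bp from con-10 on chromosome IV, which had 424 reads over both libraries. The gene rca-1, similar to the developmental regulator flbD of Aspergillus, had 386 reads in replicate 1 and 154 in replicate 2.

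The library difference of the asexual spore genes was shared by some of these genes and opposed by others. Of 10 tested members of the list, 4 were higher in replicate 1 and 4 in replicate 2, against 13.1% and 14.0% of all tested genes, with a median log2 difference of 0.11, against 0.65 for the 6 asexual spore genes and 0.00 for all tested genes. Higher in replicate 1 were acu-6 (2.37-fold), rca-1 (2.31-fold), the glucose-repressible gene ccg-1 (1.54-fold) and cat-1 (1.27-fold), and higher in replicate 2 were ccg-9 (1.51-fold), con-8 (1.31-fold), ccg-6 (1.17-fold) and fld (1.11-fold). All 8 passed the exact binomial test between the libraries, fld only just (adjusted p = 0.0489).

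Among repressors and signalling genes that affect conidiation, 11 of 14 symbols matched and 1 was called higher, against 3.13% of all counted genes, a share that 1 gene of 11 does not set apart. The authors' deposited table gave pkac-1, the catalytic subunit of the cAMP-dependent protein kinase, a mean of 3164 in Δlsd1 and 1492 in wild type, or 1.08 on the log2 scale (adjusted p = 1.40e-07). The co-repressor genes rco-1 (1496 and 1534 reads) and rcm-1 (740 and 714 reads), of which rco-1 is known to keep con-10 low in mycelium, were in neither table. The velvet gene ve-1, also in neither table, had 922 and 1242 reads and was 1.46-fold higher in replicate 2. Of the 11 tested genes of this list, 3 passed the exact binomial test between the libraries, against 27.1% of all tested genes. All 3 were higher in replicate 2, against 14.0% of all tested genes. The largest library difference on the list was 0.55 on the log2 scale, at ve-1.

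Markers of other cells were read beside these results. Of 11 genes of sexual development, 8 had a mean level under 10 CPM and fmf-1 had 0 reads in both libraries, and the summed level was 638 CPM in replicate 1 and 1218 CPM in replicate 2, most of it from asd-1. In the authors' deposited tables the pheromone precursor gene mfa-1 stood at a log2 fold change of 1.18 (adjusted p = 0.0642). There asd-1, a gene of ascus development, stood at -1.38 (adjusted p = 0.000119). The strains also differ in mating type, which cannot be told apart from the loss of lsd1 in these folds. Of the 7 tested genes of sexual development, 1 passed the exact binomial test higher in replicate 1 and 1 higher in replicate 2. The shares over all tested genes were 13.1% and 14.0%. The perithecial protein gene app had 104 and 24 reads, a 3.99-fold difference between the libraries in the direction of eas. In the other direction asd-1 had 4007 and 7618 reads, a 2.06-fold difference. None of the 6 genes of growing cells was in the tables, where 3.13% of all counted genes were called higher and 7.76% lower. Between the libraries 5 of these 6 passed the exact binomial test, against 27.1% of all tested genes. Their largest library difference was 0.30 on the log2 scale, at atp-1. The part of these lists in the values of the asexual spore genes was not tested.

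**Figure D4:**
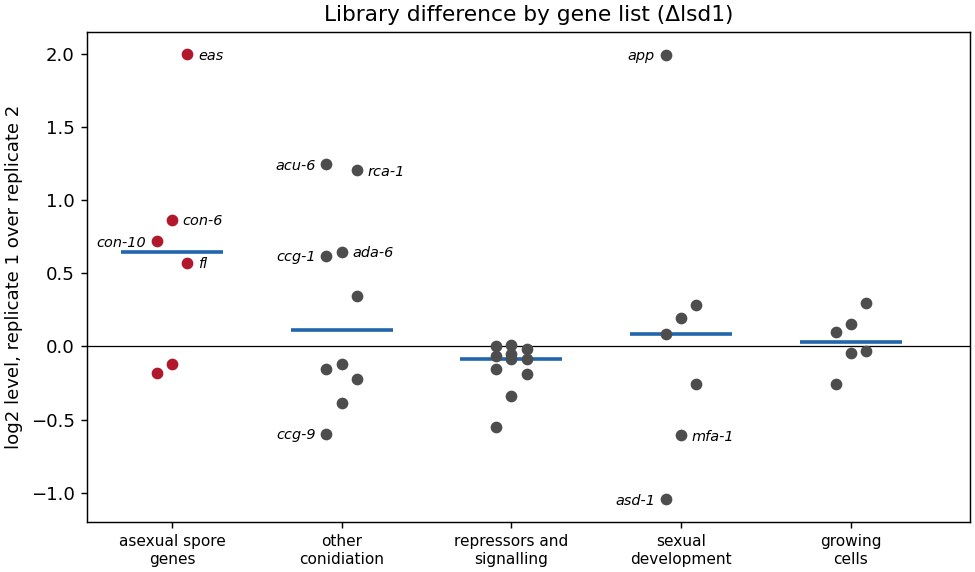
Log2 level in replicate 1 over replicate 2 of Δlsd1 for each tested gene of the asexual spore genes (red) and of the 4 other lists (grey), with the list median as a blue line. The asexual spore genes have the highest median, 0.65, the repressors and signalling genes stay within 0.55 of 0, and app is the 1 gene outside the asexual spore genes as far apart as eas, at 2.00.

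Over the 2 Δlsd1 libraries, the genes with a symbol most like each called member were read from the authors' deposited tables, by the distance between their log2 folds in each library against the wild-type mean. Nearest to con-10 were hgt-1 and ph7 at a distance of 0.11 and 0.12, nearest to csp-2 were ad-8 and pkac-1 at 0.09 and 0.10, and nearest to con-6 were sah-1 and bli-3 at 0.20 and 0.23. With only 2 libraries such likeness says little, and the candidates were 122 genes.

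None of the 7 genes overlapped any of the 250 deposited regions, which 2.43% of all genes with a position did. The nearest approach was at csp-1, with a region at chromosome I, 3287975 to 3292939, starting 1235 bp beyond the end of the gene span and lying in the gap of 11583 bp before the next gene, NCU02716. A region as near was found for 4.18% of all genes, a share that belongs to the nearest of the 7 genes, picked after the distances were seen. For csp-2 the nearest region lay 6.58 kb away, for con-6 50.9 kb and for con-10 52.1 kb, while fl, acon-3 and eas were at 201, 158 and 437 kb, against a median of 65.5 kb over all genes. The sources used here do not say how the regions were called.

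Of the 14 genes next to the asexual spore genes 12 were counted, and 1 was called higher and 1 lower, beside 3.13% and 7.76% of all counted genes. In the authors' deposited tables NCU08727, 478 bp from fl, had a log2 fold change of 1.48 (adjusted p = 0.00493) with 290 and 186 reads, while fl itself was in neither table. NCU07618, 3701 bp from acon-3, stood at -1.77 in the authors' deposited table (adjusted p = 3.38e-09). The neighbours of csp-1, csp-2, con-6 and con-10 were in neither table, and those of eas, NCU15276 and NCU15277, were not among the counted genes.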

How the data were processed

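The authors deposited raw read counts per gene for both Δlsd1 libraries, and tables with mean normalised counts, fold changes as a ratio and as log2, p-values and adjusted p-values, per the file headers. Bowtie2, DESeq2 and deepTools are named in the submitters' processing notes, with no version; the counter and alignment build were not given in the sources used here. Rows naming no gene held 16.1% and 16.2% of counted reads and were left out. For each of 1060 tabled genes the Δlsd1 mean equalled the mean of the count plus 1 over size factors of 0.640 and 0.591, which settled that a positive log2 fold change means higher in Δlsd1, and gave the value of each library. No count model across strains was possible, as wild-type counts were not used here.

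Library sizes were scaled with edgeR 4.0.16 (TMM, R 4.3.3), over genes with at least 10 reads in each library, with DESeq2 1.42.0 size factors and total reads as alternatives. The biological coefficient of variation was 15.3%. The exact binomial test (Python 3.11.15, scipy 1.17.1) was tested on data simulated with counting error only. That simulation held no further spread between libraries, so it cannot show how the test behaves under such spread. Gene names, positions and spans came from the RefSeq table of NC12, which matched 9729 of 9730 identifiers; regions on supercontigs 1 to 7 were placed on chromosomes by number. The region file gives start and end only. The other 14 samples of the series were not analysed here.

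The asexual spore genes and the 4 other lists were chosen with earlier results of these data known. Named are these 7 genes, list members that were called, a few fixed regulators, the next gene on each side, and the 2 nearest tabled genes with a symbol and a mean of at least 50.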

Additional observations from a re-analysis of the deposited data

How the results depend on the processing

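No paired analysis was possible because only 1 group has files here. Of the 7 genes, 3 were held by the authors' deposited tables. Of these 3, 2 had an adjusted p under 0.05, and 1, con-10, was at least 2-fold from the wild-type mean in each Δlsd1 library alone. With either library left out, 2 of these 3 remained at least 2-fold from the wild-type mean, con-10 in both cases, csp-2 without replicate 1 and con-6 without replicate 2. Without 1 replicate the log2 fold change ranged from 0.96 to 1.14 for csp-2, from 0.92 to 1.78 for con-6 and from -2.15 to -1.43 for con-10. With no 1 added to the Δlsd1 counts it was 1.05, 1.39 and -1.76. The wild-type mean was left as the authors gave it, so the 1 was taken from the Δlsd1 side only. The exact binomial test between the libraries called 6 genes, 4 with total reads as the scale, and 3 when at least 1.5-fold was also required, a rule added after the data were seen. The number of asexual spore genes among the highest 10% of genes per kb was 3 under each scaling and with either library left out. The alternative with another gene length was not run, since the reference table holds 1 length per gene. With chromosomes II and VII exchanged, the other placement of the regions that fits their extents, none of the 7 genes overlapped a region, and csp-2 lay 2.92 kb from the nearest. Depth limits acon-3, at 20 reads, and the 2 Δlsd1 libraries give no error for the wild type.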
